A study of Mus musculus with 12 samples.

Results

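The genes that encode subunits of the receptors for glutamate, GABA and glycine were followed in the ventrolateral white matter of the mouse spinal cord, before and after a demyelinating lesion and at 2 ages. They were found by symbol among 46078 genes in the count table: AMPA (Gria), kainate (Grik), NMDA (Grin) and delta (Grid) receptors, metabotropic glutamate receptors (Grm), GABA-A receptors (Gabra, Gabrb, Gabrg, Gabrd), GABA-B receptors (Gabbr) and glycine receptors (Glra, Glrb). Of 46 such protein-coding genes, 40 had 10 or more counts in at least 3 pools, and the counts below are over these 40. The other 6 (Gabra6, Grin2d, Glra3, Glra4, Grm2 and Grm6) stayed under that minimum. Grina and Grin1os share a name with the families but encode no subunit, and were not included.

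White matter was cut out of stained spinal cord sections of C57Bl6 mice with a laser (laser capture microdissection) and 12 RNA sequencing libraries were made from it. Each library was a pool of 5 mice, and each of the 4 groups had 3 pools: naïve and injured mice that were young, and naïve and injured mice that were middle-aged. Young mice were 6 weeks and middle-aged mice 8 months old by the study's methods. Injured mice had received lysolecithin, a detergent-like lipid that demyelinates axons, into the ventrolateral white matter and were examined 72 h (day 3) later, while naïve mice had no lesion. The pool is the replicate, and variation among the mice pooled is not seen. Because injured and naïve mice also differ in the injection itself, the needle and the lipid cannot be told apart. Total counts lay between 9834447 and 12807437 per pool, and levels are given as CPM, the usual scale that divides counts by the size of the library, here after TMM scaling. On it 3 counts, the floor of detection, correspond to 0.220 to 0.323 CPM, depending on the pool.

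Glutamate excites cells through ion channels of the AMPA, kainate and NMDA classes, each built of several subunits, and tunes them more slowly through the metabotropic receptors, which act by G proteins. GABA-A and glycine receptors are chloride channels of several subunits, and GABA-B receptors join a pair of G protein-coupled subunits. In white matter these genes are transcribed in astrocytes, oligodendrocytes and their progenitors as well as in any neurons nearby, while the axons themselves carry little messenger RNA.

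The tissue held the markers of white matter in every group. The summed level of 6 oligodendrocyte markers lay between 83480 and 97425 CPM in young naïve pools and between 50693 and 58011 CPM in middle-aged naïve pools, and between 18020 and 20015 and between 7630 and 12186 CPM in the corresponding injured pools. Neuronal transcripts were present as well: 11 neuron markers summed to between 1775 and 4351 CPM in young naïve, between 2621 and 3455 CPM in middle-aged naïve, between 738 and 973 CPM in young injured and between 846 and 931 CPM in middle-aged injured pools, and none of the 11 was at or under 3 counts in all pools of a group. The 40 receptor genes together summed to between 1307 and 1912, between 1385 and 1497, between 625 and 690 and between 518 and 638 CPM in the same order of groups. Within the young naïve group both sums had the same order, with pool 1 highest and pool 3 lowest, and pool 1 held the highest value of 28 of the 40 receptor genes while pool 3 held the lowest value of 25. Captured tissue was sequenced in bulk, so that fewer cells of a type and less RNA per cell cannot be told apart anywhere in what follows. The same holds for a larger share of RNA from other cells, since CPM is relative to all counts of a pool.

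Per kilobase of exon, the scale on which genes can be compared with each other, the level in young naïve pools was highest for Glrb, the shared beta subunit of glycine receptors, at 47.5 ± 9.34 CPM per kb (SD, n = 3 pools, as for every SD given here). Gabbr1, the GABA-binding subunit of the GABA-B receptor, followed at 22.7 ± 3.64, then the glycine receptor subunit Glra1 at 21.2 ± 7.61, the GABA-A subunit Gabra2 at 17.7 ± 3.11, the metabotropic receptor gene Grm3 at 15.5 ± 1.80 and the AMPA subunit Gria3 at 13.4 ± 5.19 CPM per kb. Glrb stood apart from Gabbr1 by more than either SD, whereas Gabbr1, Glra1 and Gabra2, and likewise Grm3 and Gria3, lay within the larger SD of their neighbours in this order. The order also depends on the length used. Exon and coding lengths were 7640 and 1353 bases for Gabra2, but 3049 and 2637 bases for Grm3. At the other end were Grm8 at 0.132 ± 0.0868, the kainate subunit Grik3 at 0.184 ± 0.103 and the GABA-A subunit Gabrg3 at 0.188 ± 0.111 CPM per kb. The common NMDA subunit Grin1 was at 0.770 ± 0.323 CPM per kb, below Grin3a, a subunit that binds glycine and not glutamate, at 3.68 ± 0.151 CPM per kb.

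Lysolecithin injury was followed by lower levels of most receptor genes at both ages. In edgeR's quasi-likelihood test, with p-values adjusted over all 15866 genes tested, 31 of the 39 receptor genes tested were lower in young injured than in young naïve pools and 1 was higher (Glra2, at 0 to 12 counts per pool, was too low to be tested). In middle-aged mice 31 were lower and 2 were higher. Of all genes tested, 26.3% were lower and 28.3% higher with injury in young mice, and 29.3% were lower and 29.2% higher in middle-aged mice, whereas 79.5% of the receptor genes tested were lower at each age. The median log2 fold change of the receptor genes was -1.32 in young and -1.43 in middle-aged mice, beside 0.00054 and -0.032 over all genes tested. Gabrd, Grin2c, Grin3b and Grm8 had 10 or more counts in fewer than 3 of the injured pools and so met the minimum through their naïve pools. Without these 4, left out after their values were seen, 27 of 35 were lower in young and 28 of 35 in middle-aged mice, and the medians were -1.26 and -1.40.

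**Figure D1:**
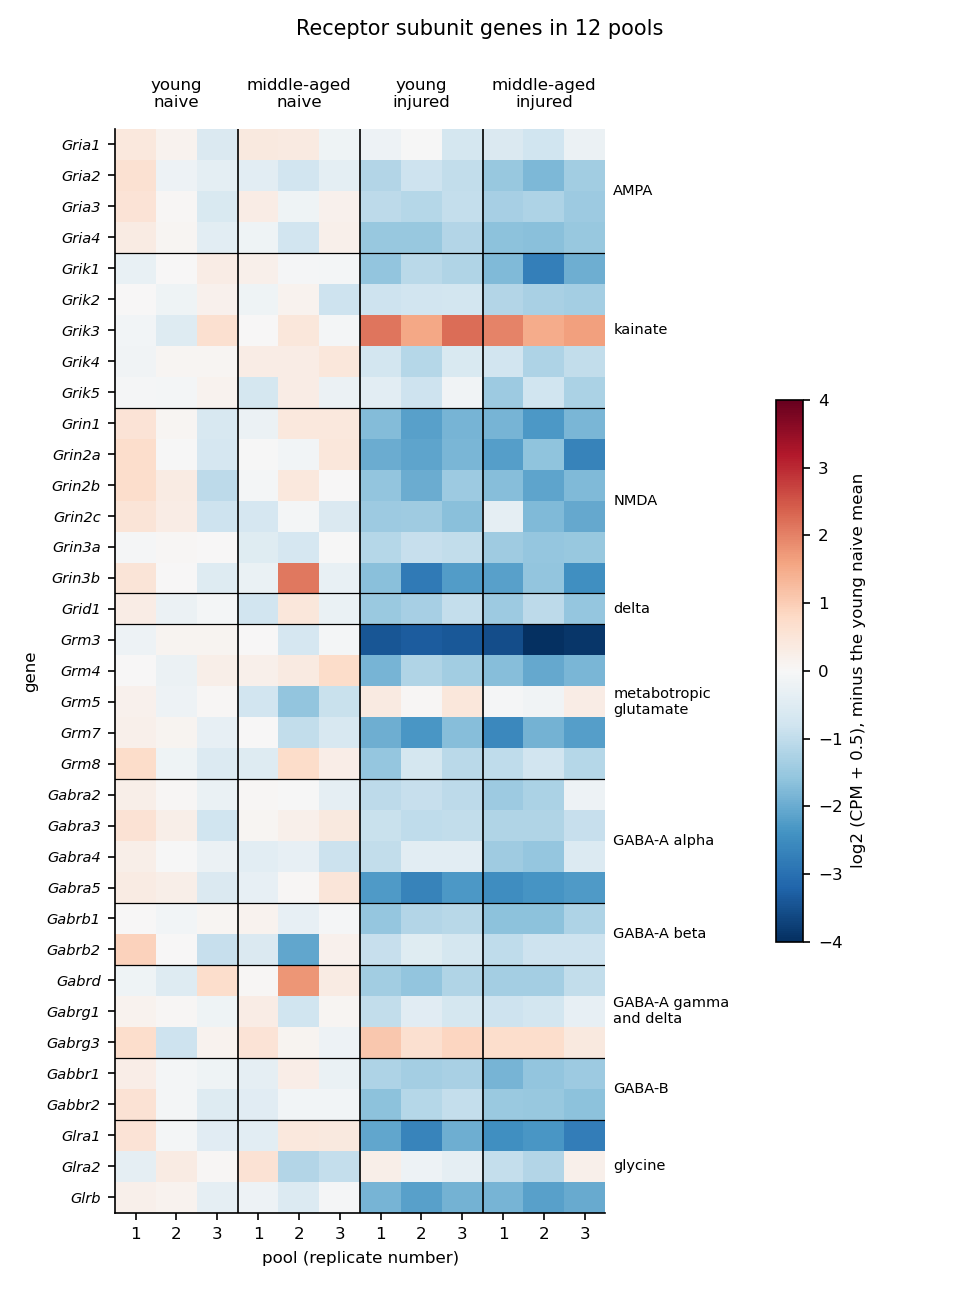
Level of 35 of the 40 receptor genes (rows, by family) in each of the 12 pools (columns, by group), as log2 of CPM plus 0.5 minus the mean of the young naïve pools (blue lower, red higher). Most rows turn blue in all 6 injured pools. Grik3 is the reddest row in the 6 injured pools, and Grin3b and Gabrd are highest in middle-aged naïve pool 2.

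At both ages 28 receptor genes were lower, and for 27 of these no injured pool reached any naïve pool of its age. Both counts include Gabrd, Grin3b and Grm8, which met the count minimum through their naïve pools. Low injured values were thus partly built into their choice. Among all genes tested, 22.8% were lower at both ages, and 21.4% were so without overlap of pools. One receptor gene, Grik3, was higher at both ages, as were 24.5% of all genes tested. In young and not in middle-aged mice 3 passed the threshold as lower, Gabrg1 and Grin2c among them, in middle-aged and not in young mice 3 did, Gria1 and Grik5 among them, and Gabra4, Gabrb2 and Gabrg3 passed at neither age. A split of this kind does not show that the ages differ, and the test of the difference between the injury effects called 0 of 39 receptor genes with edgeR and 0 with DESeq2, where 0.139% of all genes tested were called. At an unadjusted p under 0.05 there were 3 (Grik1, Grm4 and Grm5), beside 9.92% of all genes tested.

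**Figure D2:**
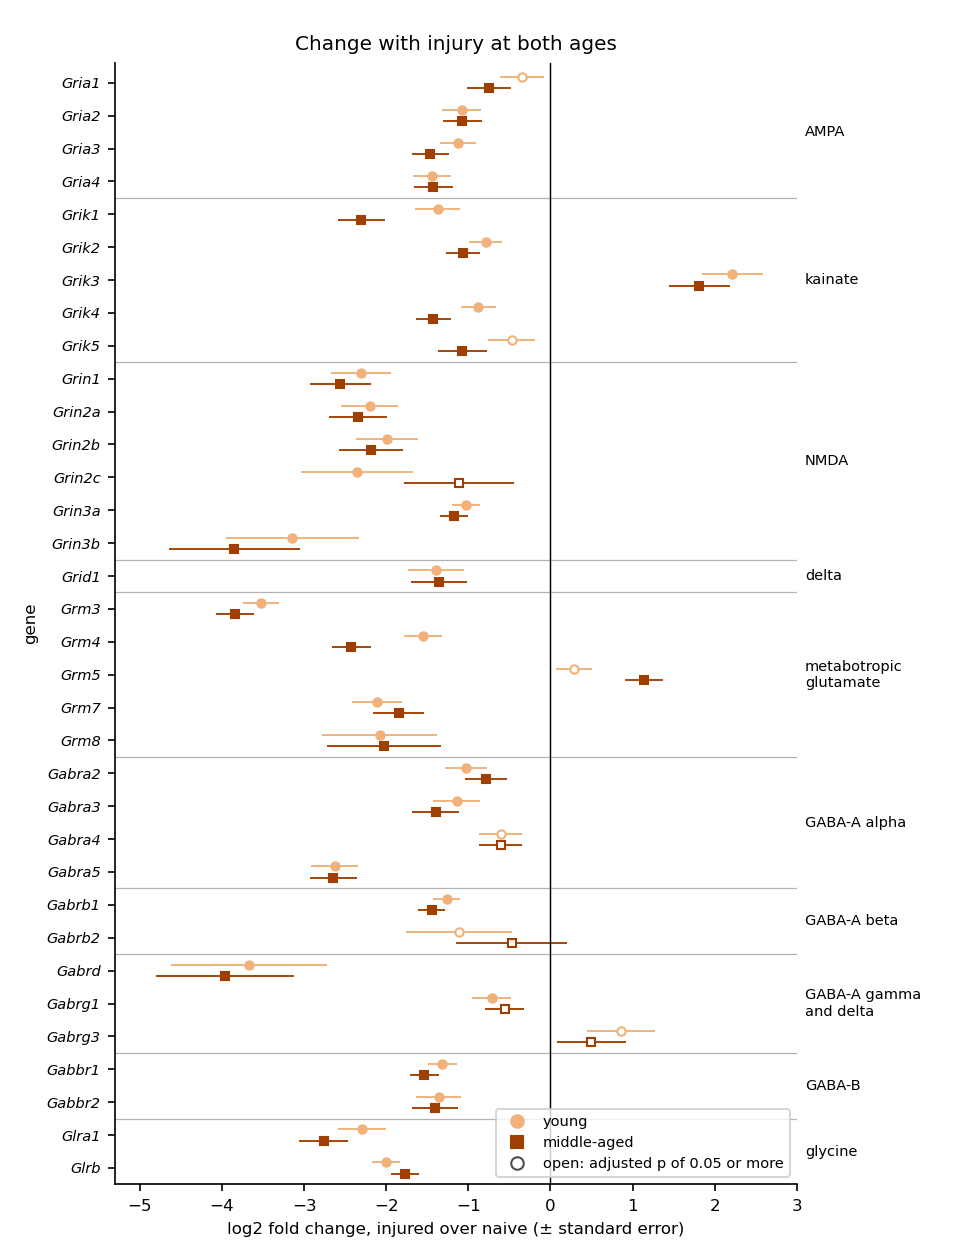
Log2 fold change of injured over naïve pools with its standard error for 34 of the 39 receptor genes tested, by family (circles young, squares middle-aged; filled symbols have an adjusted p under 0.05). Nearly all symbols lie left of 0 at both ages, with Grm3, Grin3b and Gabrd lowest and Grik3 at 2.22 and 1.81 on the right.

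Among the AMPA receptor genes, which encode the channels of fast excitation, Gria2, Gria3 and Gria4 were lower at both ages and Gria1 in middle-aged mice. Gria3, the most abundant of the 4 per length, was at 185, 131 and 82.3 CPM in young naïve pools and 60.1, 56.8 and 65.1 CPM in young injured pools. In middle-aged mice it was at 155, 112 and 143 CPM in naïve and 49.4, 53.6 and 45.9 CPM in injured pools. No injured pool came up to the lowest naïve pool of its age, and the log2 fold changes were -1.13 ± 0.22 (standard error, as for each log2 fold change here; adjusted p = 0.000568) and -1.46 ± 0.22 (adjusted p = 5.82e-05). Gria2, the subunit that keeps AMPA channels nearly closed to calcium, stood at 63.8, 36.3 and 31.7 CPM in young naïve, 18.4, 23.3 and 20.7 CPM in young injured, 30.9, 24.4 and 32.2 CPM in middle-aged naïve and 14.3, 11.7 and 15.7 CPM in middle-aged injured pools. Its pools were also apart at both ages, young naïve pool 1 being the highest of all, with log2 fold changes of -1.08 ± 0.24 (adjusted p = 0.00134) and -1.07 ± 0.24 (adjusted p = 0.0015). Gria4 changed by -1.44 and -1.43. Gria1 had log2 fold changes of -0.35 (adjusted p = 0.29) in young and -0.75 (adjusted p = 0.0274) in middle-aged mice, and the second lost its call without middle-aged naïve pool 1 (adjusted p = 0.0771) or 2 (0.0606) or middle-aged injured pool 1 (0.0745) or 2 (0.101).

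The kainate receptor genes held the one subunit that rose at both ages. Grik3, which encodes GluK3, a kainate subunit of low glutamate sensitivity (ENSMUSG00000001985, chr4:125490700-125714173, plus strand, GRCm38), was at 1.37, 0.906 and 2.69 CPM in young naïve pools and at 8.37, 5.43 and 9.04 CPM in young injured pools. In middle-aged mice it was at 1.54, 2.31 and 1.44 CPM in naïve and at 7.47, 5.19 and 5.87 CPM in injured pools. Each of the 6 injured pools lay above each of the 6 naïve pools, the mean rose 4.60-fold in young and 3.51-fold in middle-aged mice, and the log2 fold changes were 2.22 ± 0.38 (adjusted p = 0.000175) and 1.81 ± 0.37 (adjusted p = 0.000779). The other 4 kainate genes went the other way. Grik2, the most abundant per length, was at 41.0, 35.7 and 45.7 CPM in young naïve, 22.8, 23.7 and 24.2 CPM in young injured, 36.2, 44.4 and 22.5 CPM in middle-aged naïve and 17.6, 16.1 and 15.4 CPM in middle-aged injured pools. Its groups did not overlap at either age (log2 fold changes -0.79 ± 0.20, adjusted p = 0.00426, and -1.07 ± 0.21, adjusted p = 0.000479). Grik1 fell by 1.37 and 2.30 and Grik4 by 0.88 and 1.43 on the log2 scale, while Grik5 had -0.47 (adjusted p = 0.179) in young and -1.07 (adjusted p = 0.00652) in middle-aged mice.

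**Figure D3:**
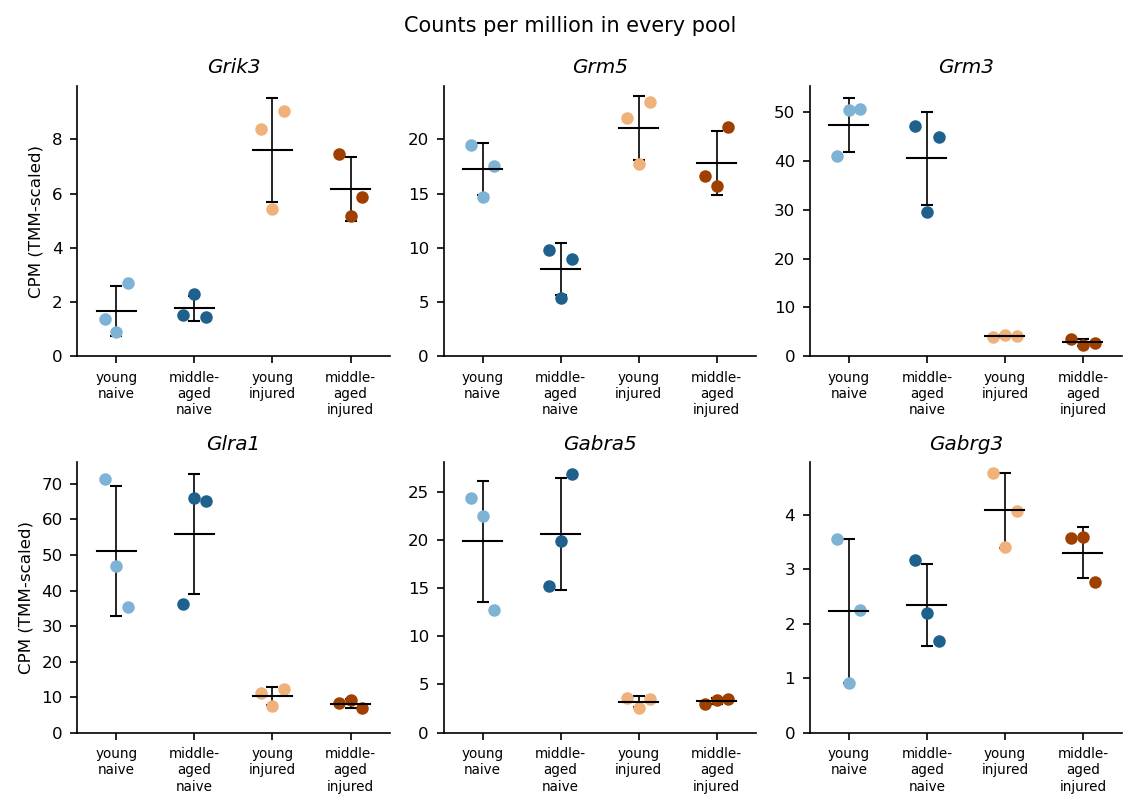
TMM-scaled CPM of 6 receptor genes in every pool (points), with the mean (line) and SD (bar) of the 3 pools of each group. Grik3 is higher and Grm3, Glra1 and Gabra5 are lower in all injured pools, Grm5 is lowest in the middle-aged naïve pools, and the pools of Gabrg3 overlap.

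Start sequences are shown for genes picked out by their changes. Windows of 300 bases, from 250 before to 50 after the RefSeq transcription start (GRCm38.p6), were matched for 24 of the 40 receptor genes, and those of Grik3, the one gene higher at both ages, and of Grm3 and Gabra5, with some of the largest decreases, are shown 5′ to 3′ on the strand of the gene, with every CG dinucleotide in capitals. CG reads the same on both strands. The Grik3 window (chr4:125490446-125490745, plus strand) held 50 CG, more than 99.1% of the 32851 windows in the table, whose median was 7. The Grm3 window (chr5:9725303-9725602, minus strand) held 11 and the Gabra5 window (chr7:57510010-57510309, minus strand) 13, at the percentiles 58.6 and 62.1. The median over the matched receptor genes was 17.5, with a range of 0 to 50. Genes lower at both ages had windows from 0 CG in Gabra3 to 46 in Gabbr2, with 42 in Grik4 and 33 in Grin1. Whether CG content goes with the direction of change was not tested. These are descriptions of the letters in the windows, and methylation and factor binding were not measured.
Grik3: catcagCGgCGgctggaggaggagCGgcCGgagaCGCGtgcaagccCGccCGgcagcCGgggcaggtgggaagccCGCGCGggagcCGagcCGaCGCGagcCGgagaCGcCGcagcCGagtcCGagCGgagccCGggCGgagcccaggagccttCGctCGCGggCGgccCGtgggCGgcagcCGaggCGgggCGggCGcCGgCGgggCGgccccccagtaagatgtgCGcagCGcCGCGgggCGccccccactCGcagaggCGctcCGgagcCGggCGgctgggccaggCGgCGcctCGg
Grm3: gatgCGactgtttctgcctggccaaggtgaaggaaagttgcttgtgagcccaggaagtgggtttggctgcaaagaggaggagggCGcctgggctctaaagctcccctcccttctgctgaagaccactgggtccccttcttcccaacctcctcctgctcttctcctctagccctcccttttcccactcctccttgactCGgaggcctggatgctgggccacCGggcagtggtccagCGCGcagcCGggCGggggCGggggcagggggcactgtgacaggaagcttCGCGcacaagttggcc
Gabra5: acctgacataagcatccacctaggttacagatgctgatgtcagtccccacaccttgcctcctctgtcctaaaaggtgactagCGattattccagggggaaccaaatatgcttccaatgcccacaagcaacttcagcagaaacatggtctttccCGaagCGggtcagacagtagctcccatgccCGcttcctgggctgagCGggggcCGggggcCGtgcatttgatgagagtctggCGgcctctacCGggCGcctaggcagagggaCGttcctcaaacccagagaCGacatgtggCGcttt

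All 6 NMDA receptor genes were lower in young injured pools, and all but Grin2c passed the threshold in middle-aged mice. Of all genes tested, 26.3% were lower in young and 29.3% in middle-aged mice. Grin2c and Grin3b met the count minimum through their naïve pools, so that low injured values were partly built into their choice. NMDA receptors need glutamate and a co-agonist, glycine or D-serine, and conduct calcium. Grin3a, the most abundant of the family per length, was at 43.2, 46.9 and 45.4 CPM in young naïve and 20.2, 23.7 and 22.4 CPM in young injured pools, and at 32.1, 28.4 and 44.8 CPM in middle-aged naïve and 16.4, 15.1 and 15.4 CPM in middle-aged injured pools. The injured pools were all below the naïve pools of their age, with log2 fold changes of -1.03 ± 0.17 (adjusted p = 0.000112) and -1.17 ± 0.17 (adjusted p = 3.53e-05). Grin1, the subunit common to NMDA receptors, changed by -2.31 and -2.56, and Grin2a and Grin2b, which bind glutamate, by -2.20 and -2.34 and by -1.99 and -2.19. The antisense gene Grin1os covers 13.5% of the exon length of Grin1 and was also lower, by 2.06 and 2.18 on the log2 scale, and since the strand setting of the counting is not given in the sources used here, reads of the pair may be shared. Grin2c had log2 fold changes of -2.36 (adjusted p = 0.00886) and -1.11 (adjusted p = 0.171). The second depended on 1 pool: middle-aged injured pool 1 held 1.66 CPM against 0.319 and 0.173 CPM in the other two, and without it the value was -2.60 (adjusted p = 0.00665).

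Grin3b, which like Grin3a encodes a glycine-binding subunit, had few counts. With all pools used, its fitted decrease was the largest of the NMDA receptor genes at both ages. It was at 5.38, 3.72 and 2.37 CPM in young naïve and 0.807, 0.0775 and 0.377 CPM in young injured pools, and at 2.98, 17.3 and 2.88 CPM in middle-aged naïve and 0.415, 0.878 and 0.259 CPM in middle-aged injured pools. All injured pools lay below all naïve pools, and middle-aged naïve pool 2 lay far above the rest. The log2 fold changes were -3.14 ± 0.81 (adjusted p = 0.00443) and -3.85 ± 0.80 (adjusted p = 0.000818). Without middle-aged naïve pool 2 the second was -2.46 (adjusted p = 0.00318), without middle-aged injured pool 2 it was -4.46 (0.00239), and without young injured pool 1 the first was -4.0 (0.00557). The value of -2.46 is close to the middle-aged -2.56 of Grin1 with all pools. With each pool left out in turn, that of Grin1 ranged from -2.76 to -2.38. The middle-aged rank of Grin3b without that naïve pool is thus uncertain. Grin3b shares 32.1% of its exon length with Tmem259 on the opposite strand, so that its counts are uncertain. Tmem259 was at 20.8 CPM in middle-aged naïve pool 2 and at 4.99 and 4.72 CPM in the other two pools of that group. The same pool held 85.4 CPM of Slc32a1, the vesicular transporter of GABA and glycine, beside 6.05 and 13.4 CPM. The part of these in the result was not tested.

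The delta receptor genes encode relatives of the ionotropic receptors that bridge synapses by binding cerebellins. Grid1 was at 9.29, 6.25 and 7.10 CPM in young naïve and 2.35, 2.64 and 3.61 CPM in young injured pools, and at 4.13, 10.4 and 6.16 CPM in middle-aged naïve and 2.41, 3.35 and 2.24 CPM in middle-aged injured pools. Its injured pools were below the naïve pools at both ages (log2 fold changes -1.39 ± 0.34, adjusted p = 0.00299, and -1.36 ± 0.34, adjusted p = 0.00359). Of 4 cerebellin genes, the ligands of delta receptors, 3 could be tested and 2 were lower at both ages, Cbln1 by 1.81 and 1.71 and Cbln2 by 1.44 and 1.87 on the log2 scale. The remaining tested gene passed at neither age, with log2 fold changes of -0.11 and 0.26. Among all genes tested, 22.8% were lower at both ages.

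The metabotropic glutamate receptor genes held both the steepest well-counted decrease and an increase. Grm3, a receptor of astrocytes and neurons that lowers cyclic AMP (ENSMUSG00000003974, chr5:9485541-9725170, minus strand), was at 41.0, 50.3 and 50.6 CPM in young naïve pools and 3.96, 4.26 and 4.07 CPM in young injured pools. In middle-aged mice it was at 47.1, 29.6 and 44.9 CPM in naïve and 3.57, 2.24 and 2.68 CPM in injured pools. The mean of the naïve pools was 11.5 times that of the injured pools in young and 14.3 times in middle-aged mice, no pools overlapped, and the log2 fold changes were -3.53 ± 0.22 (adjusted p = 1.09e-08) and -3.84 ± 0.23 (adjusted p = 6.5e-09). Grm4 and Grm7 were lower at both ages, with log2 fold changes between -2.43 and -1.55. Grm8, at 0.0734 to 2.31 CPM, changed by -2.08 (adjusted p = 0.0211) and -2.03 (adjusted p = 0.0207). Its young call was lost without young naïve pool 1 (log2 fold change -1.41, adjusted p = 0.147) or young injured pool 1 (0.0909) or 3 (0.0618), its value was -2.74 without young injured pool 2, and its middle-aged call was lost without middle-aged naïve pool 2 (0.0721) or middle-aged injured pool 1 (0.065) or 3 (0.0726).

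Grm5, a receptor that releases calcium from internal stores (ENSMUSG00000049583, chr7:87584168-88134907, plus strand), was the only receptor gene called with age. It was at 19.5, 14.7 and 17.5 CPM in young naïve pools and at 9.79, 5.35 and 8.96 CPM in middle-aged naïve pools, which did not overlap (log2 fold change -1.09 ± 0.23, adjusted p = 0.0188). It was thus the 1 of 39 receptor genes lower with age in naïve mice, with 0 higher, where 1.78% of all genes tested were lower and 2.02% higher. The call was lost when only the 6 naïve pools were used (adjusted p = 0.177) and without young naïve pool 1 (adjusted p = 0.0702), and over the other alternatives the adjusted p ranged up to 0.0481. In injured pools Grm5 was at 21.9, 17.8 and 23.4 CPM in young and 16.6, 15.7 and 21.2 CPM in middle-aged mice. Against naïve pools it was higher in middle-aged mice (log2 fold change 1.14 ± 0.23, adjusted p = 0.000672, no overlap), a comparison that shares the middle-aged naïve pools with that of age, and in young mice it changed by 0.29 ± 0.22 (adjusted p = 0.292, overlapping pools). The difference between the injury effects was 0.85 ± 0.32 (adjusted p = 0.364) and did not pass.

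In injured mice age gave 0 calls among the receptor genes with edgeR and 0 with DESeq2, where 1.15% of all genes tested were called. At an unadjusted p under 0.05 there were 7, all lower in middle-aged mice, as were 6.45% of all genes tested, with Gria2, Grin3a, Grik1, Grik2, Grik5 and Grm3 among them and log2 differences between -0.92 and -0.50. When only the 6 injured pools were used, Gria2, Grik2 and Grin3a passed. In naïve mice 3 had an unadjusted p under 0.05, as did 18.3% of all genes tested. They were Grm5, Gria2 and Grin3a, and the last had an adjusted p of 0.0452 without middle-aged naïve pool 3.

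Of the GABA-A alpha subunit genes, which with the beta subunits form the GABA binding site, Gabra2, Gabra3 and Gabra5 were lower at both ages. Gabra5, a subunit of channels outside synapses, was at 24.3, 22.5 and 12.7 CPM in young naïve and 3.60, 2.56 and 3.46 CPM in young injured pools. In middle-aged mice it was at 15.3, 19.8 and 26.8 CPM in naïve and 2.99, 3.35 and 3.54 CPM in injured pools, and no injured pool came near a naïve one. Its log2 fold changes of -2.63 ± 0.29 (adjusted p = 2.6e-06) and -2.65 ± 0.29 (adjusted p = 2.19e-06) were the lowest among the alpha and beta subunits. Gabra2, the most abundant per length, was at 158, 138 and 111 CPM in young naïve, 64.6, 70.1 and 64.2 CPM in young injured, 139, 132 and 105 CPM in middle-aged naïve and 48.2, 55.1 and 115 CPM in middle-aged injured pools. Middle-aged injured pool 3 thus lay within the naïve range, the only overlap among the genes lower at both ages. The log2 fold changes were -1.03 ± 0.26 (adjusted p = 0.00347) and -0.78 ± 0.26 (adjusted p = 0.0168), and the second lost its call without middle-aged injured pool 1 (-0.56, adjusted p = 0.0788) or 2 (-0.62, 0.0782) and with only the pools compared (-0.80, 0.0503). Gabra4 had -0.61 at both ages (adjusted p = 0.0607 and 0.0618). It passed in young mice without middle-aged injured pool 3 (adjusted p = 0.0239) or middle-aged naïve pool 2 (0.0467), and in middle-aged mice without middle-aged injured pool 3 (-0.99, 0.00343) or middle-aged naïve pool 3 (-0.75, 0.0354).

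Of the beta subunit genes, Gabrb1 was lower at both ages. It was at 145, 132 and 150 CPM in young naïve and 48.4, 63.3 and 65.8 CPM in young injured pools, and at 156, 114 and 138 CPM in middle-aged naïve and 44.7, 44.8 and 60.6 CPM in middle-aged injured pools. The gap was wider than the spread within any group (log2 fold changes -1.26 ± 0.16, adjusted p = 1.37e-05, and -1.44 ± 0.16, adjusted p = 3.49e-06). Gabrb2, at 0.210 to 5.19 CPM, passed at neither age.

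The gamma subunits place GABA-A receptors at synapses. Gabrg1, at 29.5 to 72.4 CPM, had log2 fold changes of -0.71 (adjusted p = 0.0203) and -0.55 (adjusted p = 0.0592). The young call was lost without young naïve pool 1 (0.0685) or 2 (0.0511) or young injured pool 1 (0.0908) or 3 (0.0531), and the middle-aged value was called without middle-aged naïve pool 2 (-0.81, 0.00116) or middle-aged injured pool 3 (-0.71, 0.0377). Gabrg3, at 0.906 to 4.77 CPM, had 0.86 (adjusted p = 0.0919) and 0.50 (adjusted p = 0.322) and overlapping pools, and without young naïve pool 1 the young value was 1.38 (adjusted p = 0.0199). Gabrd, the delta subunit of receptors outside synapses, was near the floor of detection in injured pools. It had 33 counts over the young naïve and 3 over the young injured pools, a ratio per effective library of 14.0 (95% counting interval 4.39 to 71.3), and 72 and 5 counts in middle-aged mice, a ratio of 16.0 (6.57 to 50.9). These intervals cover counting error only. Middle-aged naïve pool 2 alone gave 44 counts, and all 6 injured pools lay below all 6 naïve pools. The fitted log2 fold changes, which at such counts depend on the prior count, were -3.67 ± 0.95 (adjusted p = 0.00434) and -3.96 ± 0.84 (adjusted p = 0.00101). They were -3.01 and -4.50 without young naïve pool 3 and young injured pool 3, and -3.03 and -4.66 without middle-aged naïve pool 2 and middle-aged injured pool 3, with the calls kept.

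Most GABA-A subunit genes lie in clusters, and fitted changes are given here by cluster. On chromosome 5, Gabrg1, Gabra2, Gabra4 and Gabrb1 (chr5:70751047-72149037, GRCm38) had log2 fold changes between -1.26 and -0.61 in young and between -1.44 and -0.55 in middle-aged mice. On chromosome 7, Gabrg3 was at 0.86 and 0.50 and Gabra5 beside it at -2.63 and -2.65. Gabra5 shares 4.98% of its exon length with the antisense gene Gm9962.

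Both GABA-B genes were lower at both ages. Gabbr1 was at 209, 165 and 156 CPM in young naïve, 74.9, 67.4 and 70.4 CPM in young injured, 137, 212 and 146 CPM in middle-aged naïve and 48.2, 58.8 and 63.5 CPM in middle-aged injured pools. No pools overlapped (log2 fold changes -1.32 ± 0.17, adjusted p = 1.63e-05, and -1.54 ± 0.17, adjusted p = 3.44e-06). Gabbr2, the subunit that couples to the G protein, changed by -1.36 and -1.40. Of 4 genes of the KCTD proteins that bind GABA-B receptors, 3 could be tested. Kctd12 was higher at both ages, by 1.96 and 2.09, and Kctd8 was lower, by 1.88 and 1.59 on the log2 scale.

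Of the glycine receptor genes, whose receptors carry much of the fast inhibition of the spinal cord, Glra1 and Glrb were at much lower CPM in injured pools. Glra1, the adult alpha subunit, was at 71.3, 46.8 and 35.4 CPM in young naïve and 11.3, 7.52 and 12.3 CPM in young injured pools. In middle-aged mice it was at 36.3, 66.0 and 65.1 CPM in naïve and 8.47, 9.34 and 6.82 CPM in injured pools. The highest injured pool was under the lowest naïve pool, and the log2 fold changes were -2.30 ± 0.29 (adjusted p = 1.18e-05) and -2.76 ± 0.30 (adjusted p = 2.18e-06). Glrb was at 252, 239 and 171 CPM in young naïve, 59.2, 48.1 and 58.6 CPM in young injured, 188, 150 and 209 CPM in middle-aged naïve and 59.3, 48.1 and 53.5 CPM in middle-aged injured pools. It too was apart in every pool, at -2.0 ± 0.17 (adjusted p = 2.22e-07) and -1.77 ± 0.17 (adjusted p = 6.19e-07). Glra2, the fetal alpha subunit, stayed at or below 1.15 CPM.

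The summed CPM of a family in injured pools was set as a share of that in naïve pools of the same age for 9 families. Among these it was lowest for the glycine receptor genes, at 24.3% in young and 26.0% in middle-aged mice. It was 34.4% and 33.1% for the metabotropic glutamate, 35.0% and 29.2% for the NMDA, 40.1% and 34.7% for the GABA-B, 38.6% and 41.5% for the GABA-A gamma and delta, 45.4% and 41.9% for the GABA-A beta, 46.5% and 40.2% for the AMPA and 48.5% and 53.0% for the GABA-A alpha genes. The share for the kainate genes was 64.5% and 47.9%. In middle-aged injured pools the GABA-A alpha sum ranged from 73.7 to 157 CPM (mean 103, SD 46.4 CPM). The middle-aged share of 53.0% for these genes thus depended on the highest pool, and its place among the families is uncertain. These sums are descriptions and were given no test.

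Unequal changes altered the make-up of several families, given here as each gene's share of its family's CPM per kb of exon. Among the kainate genes, Grik3 made up 2.02% ± 0.89 of the young naïve and 2.24% ± 0.30 of the middle-aged naïve sum, and 14.8% ± 2.4 and 17.4% ± 2.0 of the injured sums. Among the metabotropic receptor genes, Grm3 made up 59.1% ± 7.6 in young naïve and 22.2% ± 1.8 in young injured pools, and 58.8% ± 4.2 and 19.6% ± 4.1 in those of middle-aged mice, while Grm5 went from 6.4% ± 0.8 to 33.8% ± 3.9 and from 3.4% ± 0.5 to 36.8% ± 4.7. The share of Gabra5 among the alpha genes was 18.5% ± 2.2 and 21.5% ± 6.7 in naïve and 6.8% ± 1.5 and 7.8% ± 2.2 in injured pools, and that of Grin3a among the NMDA genes was 49.4% ± 12.5 and 38.1% ± 14.0 in naïve and 70.6% ± 6.4 and 62.5% ± 6.5 in injured pools. The pools of these shares did not overlap between naïve and injured mice of one age. Gabbr1 made up between 87.9% and 92.9% of the GABA-B sum in every pool. The shares move with the length used. With coding length in place of exon length, Gabra5 made up 9.24% of the young naïve and 3.20% of the young injured sum, Grm3 42.6% and 11.9%, Grm5 11.2% and 44.2% and Grik3 2.13% and 15.6%, and the pools of naïve and injured mice of one age still did not overlap for these genes and Grin3a.

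**Figure D4:**
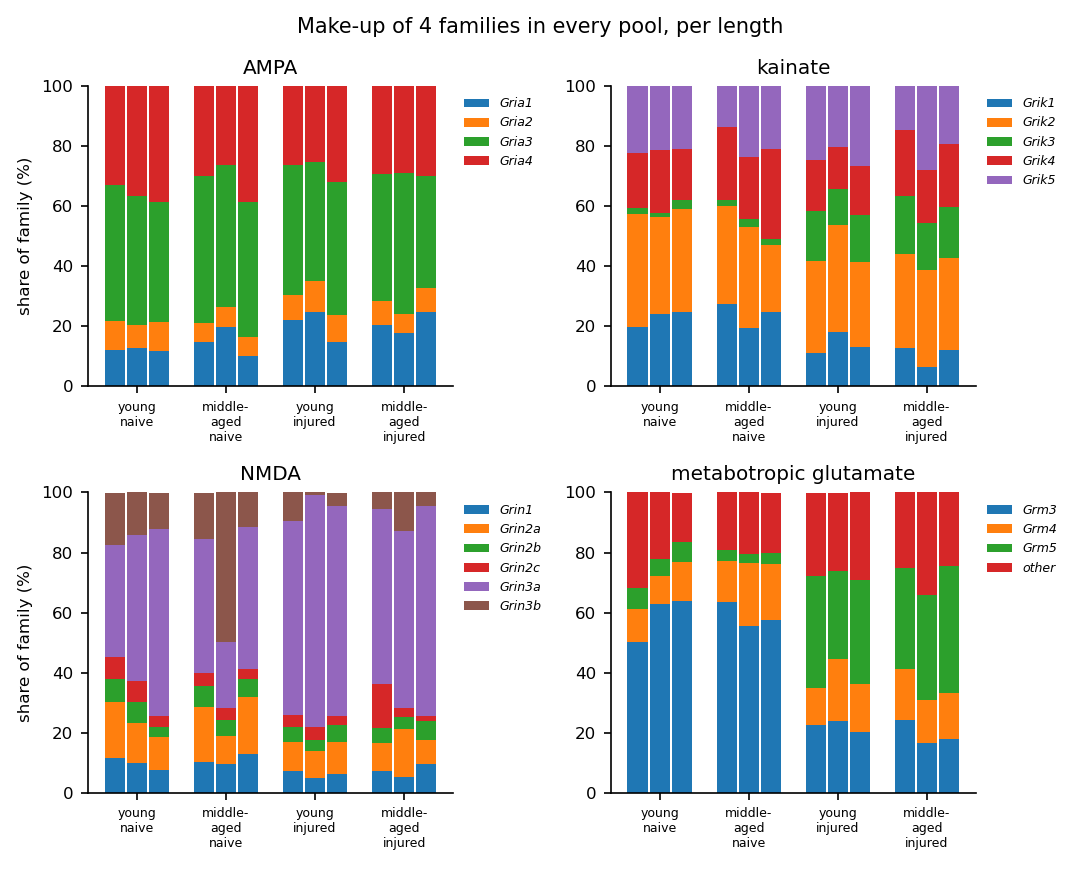
Share of each gene in its family's CPM per kb of exon, in percent, for 4 families (panels), with 1 bar per pool and 3 bars per group. In injured pools Grik3 widens among the kainate genes, and Grm5 widens and Grm3 narrows among the metabotropic genes, where several genes are drawn together as 1 band (other).

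Genes whose products work with the receptors were counted in lists, to be read beside the 26.3% lower and 28.3% higher of all genes tested in young mice and the 29.3% and 29.2% in middle-aged mice. Of 14 genes of AMPA and kainate receptor auxiliary subunits, which set the trafficking and gating of the channels, 13 were tested: 3 were lower and 4 higher in young mice, and 3 lower and 1 higher in middle-aged mice. Cacng2, which encodes stargazin, was lower by 2.63 and 2.46 on the log2 scale. Cacng5, at 6.56, 6.62 and 9.57 CPM in young naïve and 32.6, 21.2 and 33.5 CPM in young injured pools, was higher by 1.95 in young and 2.95 in middle-aged mice (adjusted p = 7.8e-05 and 1.7e-06). Of 14 genes of postsynaptic scaffolds at excitatory synapses, 13 were tested, and 7 were lower and 0 higher at each age, among them Dlg2 by 1.40 and 1.76 and Homer2 by 1.23 and 1.78 on the log2 scale. Of 7 genes of inhibitory synapses, 3 were lower at both ages, among them Lhfpl4 by 0.94 and 1.71 and Gphn, the gephyrin that anchors glycine and GABA-A receptors, by 0.98 and 0.91, while 2 were higher in young and 1 in middle-aged mice. Of 11 genes of transmitter uptake, 7 were lower and 3 higher in young mice, and 8 lower and 2 higher in middle-aged mice. The glial glutamate transporter Slc1a2 had log2 fold changes of -1.82 and -2.05, the glycine transporter Slc6a9 -2.03 and -2.07, and Slc1a5, a transporter of neutral amino acids, 2.23 and 2.53.

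Markers of several cell types changed beside the receptor genes. Of the 11 neuron markers, 9 were lower and 0 higher in young mice, and 8 lower and 1 higher in middle-aged mice (medians -1.83 and -1.65). Chat, the enzyme that makes acetylcholine in motor neurons, fell by 3.11 at both ages, whereas, among markers picked out after their values were seen, Syt1 had -0.02 (adjusted p = 0.97) and -1.65 (adjusted p = 0.0034) and Slc17a6, the glutamate transporter of excitatory neurons' vesicles, 0.12 (adjusted p = 0.84) and 1.52 (adjusted p = 0.0092). The test of the difference between the injury effects called 0 of the 11 neuron markers. Of 7 astrocyte markers, 6 were lower and 0 higher at each age (medians -1.29 and -1.14), and their sum lay between 11357 and 12881 CPM in young naïve, between 10249 and 12044 in middle-aged naïve, between 5202 and 6136 in young injured and between 3812 and 5431 CPM in middle-aged injured pools. All 6 oligodendrocyte markers were lower at both ages (medians -2.02 and -2.39). Of 6 markers of oligodendrocyte progenitors, Pdgfra, Cspg4 and Vcan were higher at both ages, by 0.99, 1.99 and 1.53 in young and 0.94, 1.83 and 1.20 in middle-aged mice, and C1ql1, Neu4 and Ptprz1 passed as lower in middle-aged and not in young mice, with differences between the injury effects of -0.71, -0.91 and -0.36 (adjusted p = 0.708, 0.369 and 0.566). All 6 myeloid markers were higher (medians 4.34 and 3.60). Their summed levels were between 71.8 and 102 CPM in young naïve, between 110 and 147 in middle-aged naïve, between 1373 and 1394 in young injured and between 1461 and 1950 CPM in middle-aged injured pools. Of 5 markers of pericytes and fibroblasts 4 were higher and 1 lower at each age. Of 4 endothelial markers 2 were higher at each age and 1 was lower in middle-aged mice. Markers of Schwann cells (2 of 4 tested) gave 1 higher in young mice, and the 3 of T and B cells were too low to test. The part of any of these in the changes of the receptor genes was not tested.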

How the data were processed

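White matter RNA was measured in 12 pools of 5 mice, 3 per group, with groups and replicate numbers from the labels and ages and lesion time from the study's methods. The authors cut 20 µm cryosections, amplified RNA of integrity number above 8, checked reads with FastQC 0.11.4, aligned them with TopHat 2.0.10 (bowtie 1.1.2) against GRCm38, counted them per gene with featureCounts and deposited each raw count without normalization. The annotation release, the strand setting and the handling of shared reads are not given in the sources used here.

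The quasi-likelihood test of edgeR 4.0.16 (under R 4.3.3) was run on these counts after filterByExpr and TMM scaling, with 1 coefficient per group, all 12 pools and no covariates. Benjamini-Hochberg adjustment covered the 15866 genes tested, and an adjusted p under 0.05 was a call. Standard errors were obtained as the size of the log2 fold change over the root of its F statistic. Genes were placed with GENCODE M21 on GRCm38 (98.2% of identifiers had a symbol), which also gave exon and coding lengths, and start windows came from RefSeq. The authors' table holds counts on genes only, so that precision is that of 9834447 to 12807437 counts per pool. Nothing in the labels says that replicate numbers pair pools. Replicates of a group correlated with r between 0.937 and 0.988 across genes, and no pair agreed within sampling noise. The steps were tested on simulated data.

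In full were described the genes called at both ages in 1 direction without overlap (the 6 lowest and 4 highest means), the most abundant gene of each family per length and any gene called with age. Some genes that these rules name are not reported here. Other genes are given by range and count, and calls that single pools decide were added after their values were seen. The members and gene lists were chosen with earlier results of these data known. Alternatives were 3 other scalings, 2 other filters on low counts, DESeq2 1.42.0, only the pools compared, the replicate number as a block and each pool left out in turn.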

Additional observations from a re-analysis of the deposited data

How the results depend on the processing

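The number of receptor genes changed by injury was 32 in young and 33 in middle-aged mice. It ranged from 29 to 34 and from 31 to 35 when each pool was left out in turn, and was 32 and 33 with DESeq2 and with the replicate number as a block. Chosen after seeing the data, leaving out middle-aged naïve pool 2 (the pool least like its group) and young naïve pool 3 (the naïve pool with the lowest neuron sum) together gave 35 and 33. No pairing was evident: deviations of same-numbered pools correlated with r between -0.113 and 0.153, and 1 of 12 pools correlated best with its own number in every other group. The block changed none of the counts over the 5 comparisons. The number lower or higher with age in naïve mice was 1. It was 0 with only the naïve pools, 3 with the 2 pools left out together (Grm5 among them), and from 0 to 2 with each pool left out (0 without young naïve pool 1, 2 without middle-aged naïve pool 3). In injured mice it was 0, and 3 with only the injured pools. The cause was not tested. Of single genes, Gabrb2 changed sign: its middle-aged log2 fold change of -0.47 ranged from -0.96 to 0.36 with each pool left out, the last without middle-aged naïve pool 3. With upper-quartile scaling Gabra4 at both ages and Gabrg1 in middle-aged mice were called as lower. Scaling by library totals moved the median of all genes in young mice from 0.00054 to 0.197. There Gabrg3 was called as higher (adjusted p = 0.044), and Gabrg1 in young and Gria1 in middle-aged mice lost their calls (0.0874 and 0.0514). Grik3 was higher and Grm3 lower at both ages under all alternatives run. Counts of a few reads per pool limit Gabrd, Grm8, Grin3b, Grin2c, Gabrb2 and Gabrg3.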

Other observations

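Of the 6 receptor genes under the count minimum, all but Grin2d were close to absent at this depth in all groups. Gabra6, the alpha subunit of cerebellar granule cells, had 0 counts in all 12 pools, Glra3, Grm2 and Grm6 had at most 2 in any pool and Glra4 at most 3. Grin2d had 17 in 1 middle-aged naïve pool, 16 in 1 young naïve pool and at most 7 in the others. The GABA-A subunits outside the families described (Gabre, Gabrp, Gabrq and Gabrr1 to Gabrr3) summed to between 0.105 and 1.39 CPM per pool, and none could be tested.

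Grina, a gene of the TMBIM family that carries an NMDA receptor name without encoding a subunit, was at 76.3 to 137 CPM over the 12 pools. Its log2 fold changes with injury were -0.46 (adjusted p = 0.03) in young and -0.40 (adjusted p = 0.053) in middle-aged mice. Slc6a13, a GABA transporter of the meninges and vessels picked out after its values were seen, had 2.08 (adjusted p = 0.018) in young and -1.19 (adjusted p = 0.12) in middle-aged mice, and the difference between these effects was -3.27 ± 0.93 (edgeR adjusted p = 0.201).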
